A study of Mus musculus with 46 samples.

Results

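The 9 nonclassical major histocompatibility complex (MHC) class I genes H2-T23, H2-T22, H2-T24, H2-Q4, H2-Q6, H2-Q7, H2-M3, Cd1d1 and Mr1 were described in mouse MC-38 colon carcinoma, in culture and as tumors grown under the skin. They were taken by name from the class Ib genes, with no threshold on a measured value, and were all found among the 48795 genes measured. Bulk RNA-seq of 46 samples gave 3 samples of MC-38 cells, 3 baseline tumors, 5 tumors each of isotype control and PD-1 Ab after 1 dose and after 2 doses, and 10 tumors each labelled PD-1cKO and WT. The values are FPKM, fragments scaled to transcript length and to the mapped fragments of the library, so levels may be set side by side between genes of different length.

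All mice were females aged 8 to 10 weeks and bore MC-38 cells injected into the right flank. Mice of the antibody groups were wild-type C57/BL6NTac and received isotype antibody or the PD-1 Ab muDX400 at 5 mg/kg, with tumors taken on day 11 after implant for 1 dose and day 15 for 2 doses. The dose of the isotype antibody is not given in the sources used here. PD-1cKO mice carry Pdcd1 with loxP sites around exons 2 and 3 and an inducible cre expressed from Rosa26, a locus active in nearly all cell types, so deletion is not limited to T cells. Both PD-1cKO mice and their littermate controls, labelled WT, received tamoxifen at 40 mg/kg on 5 days, and the control tumors therefore share the tamoxifen. The labels and the study's table and main figure of these data place these 20 tumors on day 28, whereas its methods give day 22. MC-38 is 1 cell line, and the tumors hold host cells of many types beside it.

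Classical class I molecules show peptides from inside the cell to CD8+ T cells. The nonclassical molecules share their fold but vary little between individuals and serve specialised receptors. H2-T23 encodes the heavy chain of Qa-1, which displays leader peptides of other class I molecules to the inhibitory receptor of NKG2A (Klrc1) and CD94 (Klrd1) on NK cells and activated CD8+ T cells. H2-T22 is a ligand of some gamma delta T cell receptors, H2-Q6 and H2-Q7 belong to the genes of the Qa-2 antigen, and H2-M3 displays N-formylated peptides. Cd1d1 presents lipids to NKT cells, and Mr1 presents vitamin B metabolites to MAIT cells.

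Of the 9 genes, 7 lie on chromosome 17 in GRCm38. H2-Q4 (chr17:35379617-35385290), H2-Q6 (chr17:35424850-35430055) and H2-Q7 (chr17:35439155-35443773) stand in a row on the plus strand. H2-T24 (chr17:36005695-36020560), H2-T23 (chr17:36029773-36032855) and H2-T22 (chr17:36037128-36042747) stand in a row on the minus strand, and only 4273 bases separate H2-T23 from H2-T22. H2-M3 (chr17:37270220-37274484) lies beyond them on the plus strand. Cd1d1 (chr3:86995834-86999441) and Mr1 (chr1:155127277-155146814) lie outside the MHC, both on the minus strand.

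RefSeq promoters (GRCm38.p6, 250 bases before and 50 after the annotated start) were at hand for 7 of the 9 genes. They were searched for the interferon-type element, a regulatory feature known from class I genes. The letters searched were GAANNGAAA and GAAANNGAA on both strands, which may overlap each other. Either form occurred in 14.8% of all 32851 promoters of that length and in 6 of the 7 member promoters. The stretches that hold it are shown 5′ to 3′ on the strand of the gene, with the element in capitals and, upstream of it in H2-Q6 and H2-Q7, the letters GGGATTCCC, which 0.353% of all promoters hold on either strand.
H2-T23, chr17:36032805-36032834: tcctactgctTTCTCTTTCataaagacaca
H2-T22, chr17:36042913-36042957: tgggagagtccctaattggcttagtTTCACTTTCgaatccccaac
H2-Q4, chr17:35379439-35379483: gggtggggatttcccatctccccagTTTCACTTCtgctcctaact
H2-Q6, chr17:35424673-35424717: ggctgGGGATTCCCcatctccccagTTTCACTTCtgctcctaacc
H2-Q7, chr17:35439017-35439061: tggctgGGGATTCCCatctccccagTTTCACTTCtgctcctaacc
H2-M3, chr17:37270108-37270152: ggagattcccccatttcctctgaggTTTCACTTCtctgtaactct

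The 3 Q genes and H2-M3 carried the same 9 letters, TTTCACTTC, and H2-T22 and H2-T23 carried the other form. In H2-T23 the match lies inside an exon of a longer GENCODE transcript that starts upstream of the RefSeq start, so its place relative to the start depends on the annotation. The Mr1 promoter held neither form. Also searched was the Y box ATTGG, found in 6 of the 7 member promoters and in 37.4% of all promoters. The X2 box core TGACG was found in 4 of the 7 and in 20.8% of all promoters. A match is a run of letters and not a measured site.

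The sequences also limit how well the genes can be told apart. For H2-T22, 34.5% of the 50-base stretches of its transcripts occur in another gene, mostly H2-T10, which held 31.2% of them. The share was 32% for H2-Q6, 26.4% for H2-Q7 and 21.8% for H2-Q4. Fragments from such stretches may be counted for another gene, so the values of these 4 genes are uncertain. The shares count exact matches only, whereas alignment allowed 2 mismatches, so they do not measure the size of that uncertainty. H2-Q8 and H2-Q9, close relatives of H2-Q6 and H2-Q7, were not found by name among the genes measured and were not analysed here. Cd1d1 shared 19.1% with Cd1d2 and H2-T23 shared 13.6% with several genes, whereas H2-T24 (3.17%), H2-M3 (0.576%) and Mr1 (0.0%) were nearly free of shared stretches. H2-T23 lies within the antisense gene A930015D03Rik, and whether counting used strand is not given in the sources used here. That gene averaged 5.81 FPKM with isotype control and 9.46 FPKM with PD-1 Ab after 2 doses, and 0.367 FPKM in WT and 0.288 FPKM in PD-1cKO tumors.

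In the whole series, 1 tumor stood apart: isotype control replicate 1 after 1 dose had 54.6% of its FPKM on mitochondrial genes, against at most 7.65% in the other 45 samples. Short noncoding RNAs took between 30.2% and 66.5% of the FPKM in the PD-1cKO and WT tumors and at most 0.0817% elsewhere, so levels are set side by side but not tested between those 20 tumors and the rest. Epithelial markers (Krt8, Krt18, Krt19, Epcam and Cdh1) summed to between 0.616 and 0.742 FPKM in the MC-38 cells, so the carcinoma label was not borne out by these markers. The Pdcd1 level per gene was higher in the tumors labelled PD-1cKO (9.61 FPKM ± 4.51, SD, n = 10) than in WT tumors (3.30 ± 1.46, n = 10). A level over the whole gene does not check a deletion of 2 exons. The study did measure the protein by flow cytometry, and reports that tamoxifen left very few tumor-infiltrating T cells of PD-1cKO mice with PD-1.

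**Figure D1:**
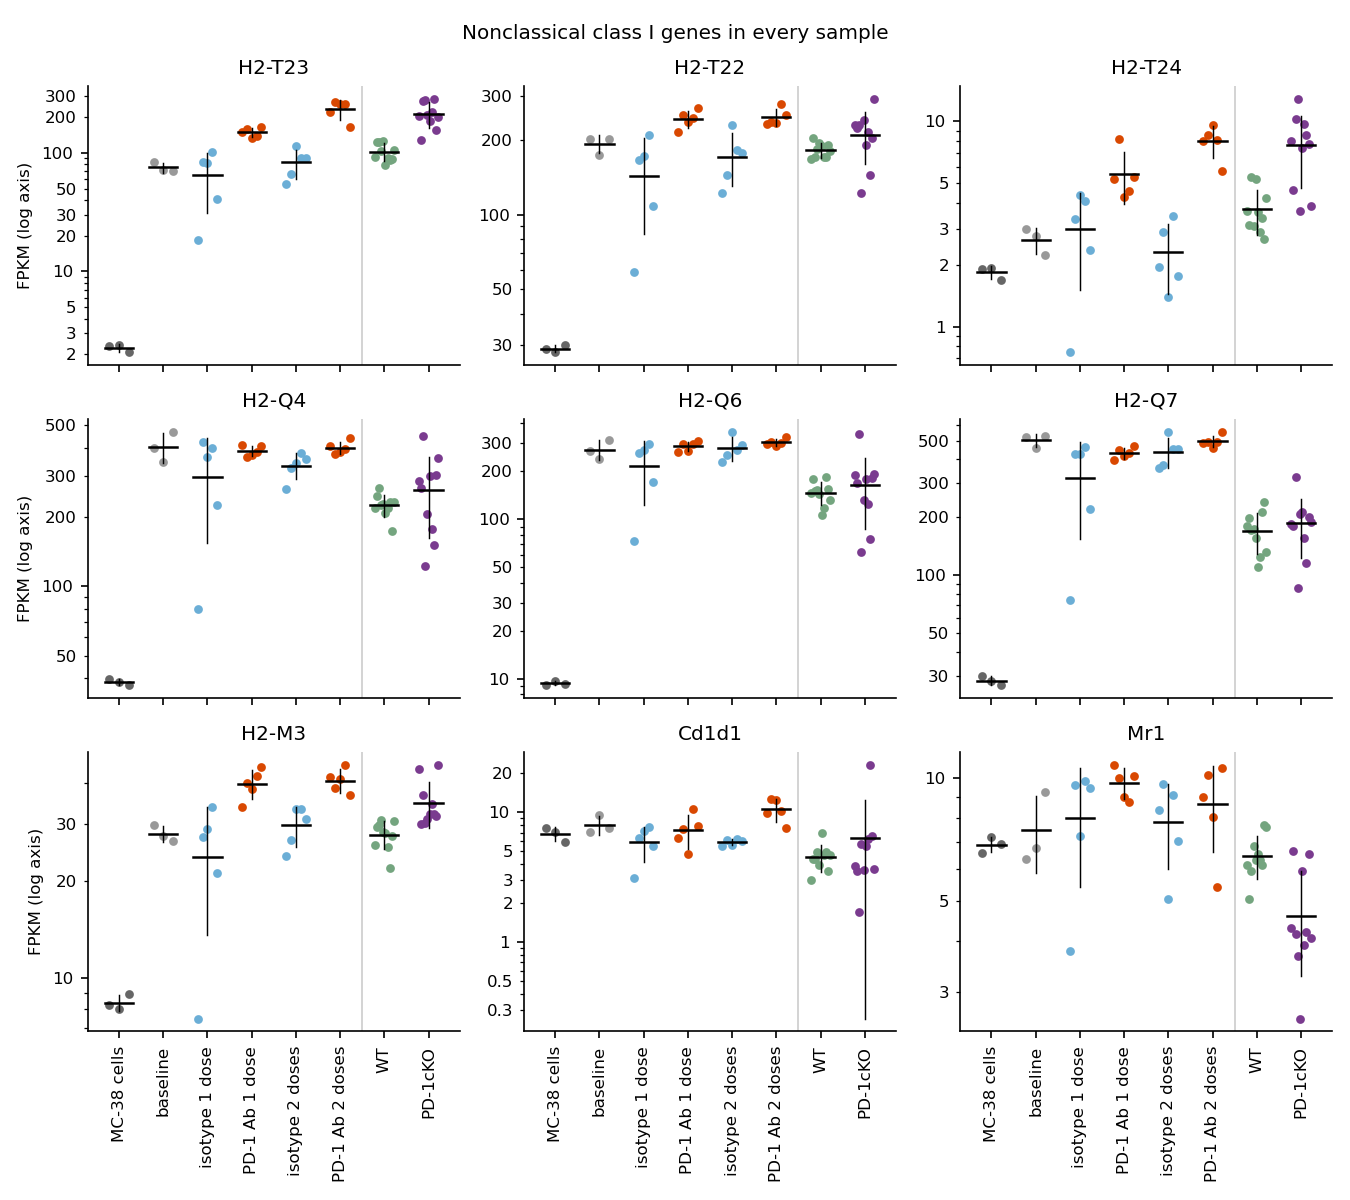
FPKM of the 9 genes on log axes, 1 point per sample, for the 8 groups. Horizontal bars are group means and vertical bars SD. In H2-T23 the MC-38 cells lie near 2 FPKM and every tumor at 18.4 or more, and the 10 PD-1cKO tumors all lie above the 10 WT tumors.

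H2-T23 was low in cultured MC-38 cells and far higher in tumors. Its level was 2.33, 2.41 and 2.08 FPKM in the 3 samples of MC-38 cells. These are called cultures below, although no source used here states that they were cultured apart, so their spread may be technical. Baseline tumors had 83.9, 71.5 and 70.9 FPKM. Isotype control tumors after 2 doses had 54.5, 65.7, 113, 90.9 and 90.5 FPKM. Every tumor thus lay far above every culture, and the log2 fold change of isotype control tumors over cells was 5.08 (SE 0.22 and adjusted p = 9.24e-08 in limma).

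The Qa-2 genes showed almost as wide a gap. H2-Q6 was at 9.13, 9.68 and 9.29 FPKM in the cultures and at 228, 252, 353, 272 and 292 FPKM in those isotype control tumors (log2 fold change 4.87, SE 0.13 and adjusted p = 4.54e-09 in limma). H2-Q7 averaged 28.3 FPKM ± 1.56 (SD, n = 3) in cells and 438 ± 78.5 (n = 5) in tumors, with a log2 fold change of 3.93. Relative to H2-T23 in the same sample, the change of H2-Q6 differed by -0.21 on the log2 scale (95% interval -0.69 to 0.26) and turned to 0.11 with a pseudocount of 1 FPKM, so the order of the 2 genes depends on the pseudocount, and the other 7 genes rose by less or did not rise.

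H2-Q4, H2-T22 and H2-M3 followed with smaller steps. H2-Q4 averaged 38.4 FPKM ± 1.23 in cells and 334 ± 43.1 in tumors (log2 fold change 3.11), and it was the highest of the 9 genes in the cultures. H2-T22 rose from 28.9 ± 0.967 to 172 ± 41.4 FPKM (2.53). H2-M3 rose from 8.39 ± 0.492 to 29.6 ± 4.23 FPKM (1.80). In these 6 genes no value of these tumors overlapped a culture value, as in 59.3% of all genes, and all 6 passed the limma test at an adjusted p under 0.01 with at least a 2-fold change.

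H2-T24, Cd1d1 and Mr1 were low in both cells and tumors and did not pass. H2-T24 was at 1.91, 1.92 and 1.68 FPKM in cells and at 1.95, 2.90, 1.40, 3.48 and 1.76 FPKM in tumors. Cd1d1 averaged 6.87 FPKM in cells and 5.91 in tumors, and Mr1 6.88 and 7.84. Their ranges overlapped, and the adjusted p in limma lay from 0.139 to 0.541. The intervals of the log2 difference ran from -0.40 to 0.87 for H2-T24, from -0.46 to 0.04 for Cd1d1 and from -0.30 to 0.60 for Mr1. In baseline tumors H2-T24 was at 2.22 to 2.98 FPKM, above every culture. Its log2 change there was 0.50 (95% interval 0.13 to 0.86, limma adjusted p = 0.0287), and it passed without baseline replicate 3 (0.00573).

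**Figure D2:**
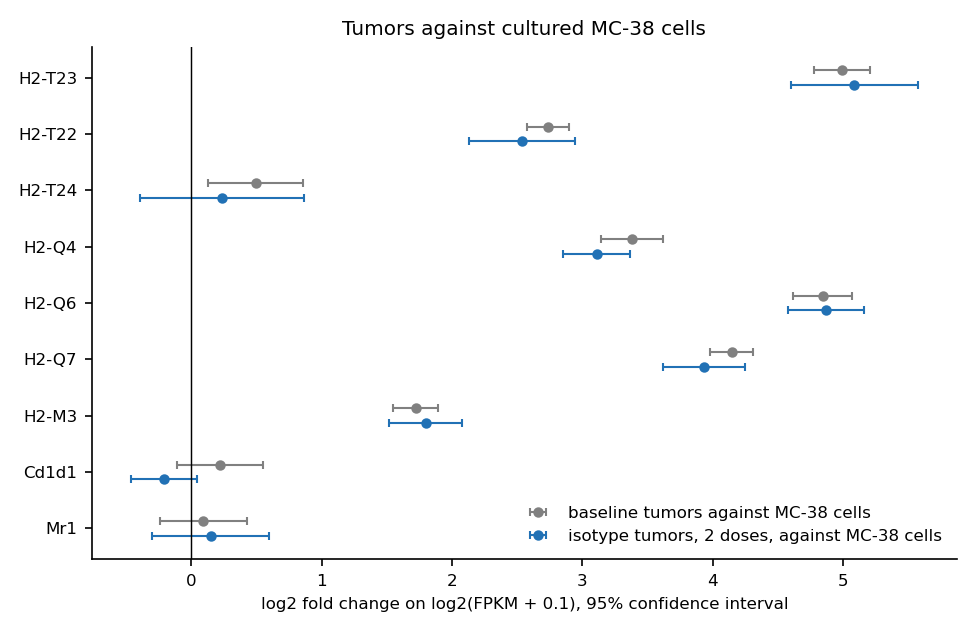
Log2 fold change of the 9 genes in baseline tumors (grey) and in isotype control tumors after 2 doses (blue) against MC-38 cells, with 95% confidence intervals. In both comparisons 6 genes lie well above 0, with H2-T23 and H2-Q6 near 5. H2-T24, Cd1d1 and Mr1 lie within 1 of 0, and the interval of H2-T24 in baseline tumors (0.13 to 0.86) excludes 0.

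Of all 15199 genes tested in this comparison, 21.3% passed with at least a 2-fold change and 37% passed at any fold, against 6 of the 9 members by both rules. Baseline tumors against cells called the same number, 6 of 9, with 15.8% and 39.1% of 15217 genes called by the 2 rules, and 7 of 9 members separated those groups, against 65% of all genes. The comparison of changes relative to H2-T23 passed 97% of all genes and 7 of the 8 other members. The median log2 fold change over all genes was -0.11 for isotype control tumors and moved to -0.03 after rescaling. In bulk samples, more cells of a type and more RNA per cell cannot be told apart. The pan-leukocyte gene Ptprc was at 0 to 0.0078 FPKM in the cultures and at 10.53 to 25.9 FPKM in these tumors, and the macrophage genes Adgre1, C1qa and C1qb were at 0 in every culture. Their part in the rise was not tested.

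Genes whose products load and assemble class I molecules were higher in tumors as well. Of 14 genes of peptide loading, 10 passed higher and 1 lower, where 37% of all genes passed in either direction. The log2 fold changes were 3.74 for the peptide transporter Tap1, 4.39 for the immunoproteasome subunit Psmb9 and 2.69 for the light chain B2m. Of 13 regulators of class I genes, 8 passed higher, among them Nlrc5, the class I transactivator (3.52), and 1 lower, against the same 37%. The classical genes H2-K1 and H2-D1 rose by 3.17 and 3.16.

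After 1 dose of PD-1 Ab, none of the 9 genes passed the test, and 0% of 14556 genes passed by either rule, although 895 genes had an unadjusted p under 0.05. H2-T23 was at 18.4, 84.2, 82.3, 102 and 40.7 FPKM with isotype control. It was at 149, 158, 132, 139 and 164 FPKM with PD-1 Ab. All 5 treated tumors were above every control, and the log2 fold change was 1.41 (SE 0.40, unadjusted p = 0.00418, limma adjusted p = 0.392). Controls and treated tumors were also separate for H2-T22 and H2-M3, so in 3 of the 9 genes, against 3.65% of all genes.

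Isotype control replicate 1, the tumor rich in mitochondrial transcripts, was the lowest of its group in all 9 genes. Without it the control mean of H2-T23 was 77.4 FPKM ± 26.1 (SD, n = 4), the log2 fold change fell to 1.01, and the limma adjusted p was 0.0624. H2-Q4, H2-Q6 and H2-Q7 then changed by 0.17, 0.22 and 0.22, from 0.60, 0.57 and 0.68 with it. The median change over all genes was 0.26 without rescaling and 0.01 with median-of-ratios scaling, under which H2-T23 changed by 1.16 (adjusted p = 0.0846). Isotype control replicates 1 to 3 also carry sample identifiers from a separate run of numbers. A run here means a stretch of nearby identifier numbers, and the sources used here do not say what it stands for. Within the run that holds the other 7 tumors, H2-T23 was at 40.7 and 102 FPKM with isotype control and at 132 to 164 FPKM with PD-1 Ab.

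After 2 doses of PD-1 Ab, H2-T23 and H2-T24 were the 2 genes of the 9 that rose at least 2-fold. H2-T23 was at 223, 268, 258, 256 and 164 FPKM with PD-1 Ab, against the 54.5 to 113 FPKM of the isotype control tumors. All 5 treated tumors lay above every control, with a log2 fold change of 1.52 (SE 0.20 and adjusted p = 0.00101 in limma). H2-T24 was at 8.04, 8.58, 9.64, 8.15 and 5.75 FPKM against 1.40 to 3.48 FPKM in controls (1.82, SE 0.24, adjusted p = 0.00101). Treated tumors of H2-T24 also lay entirely above the controls, but at a level about as low as that of Mr1.

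Cd1d1 rose by less. It was at 9.88, 12.7, 12.5, 10.19 and 7.64 FPKM with PD-1 Ab and at 5.54, 6.12, 5.58, 6.27 and 6.03 FPKM with isotype control. The groups did not overlap, and the log2 fold change was 0.81 (SE 0.14 and adjusted p = 0.00316 in limma). It no longer passed without isotype control replicate 1 and without PD-1 Ab replicate 2 or 3, where the adjusted p reached at most 0.0126, and in 1 fit of all 8 groups (0.126).

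H2-T22 and H2-M3 changed by less than 2-fold. H2-T22 was at 233, 237, 234, 280 and 253 FPKM with PD-1 Ab and at 122, 144, 231, 183 and 178 FPKM with isotype control (0.56, SE 0.15 and adjusted p = 0.0222 in limma). H2-M3 averaged 40.8 FPKM ± 3.38 against 29.6 ± 4.23 (SD, n = 5 each; 0.47, adjusted p = 0.0128). Both groups of values were separate in these genes, yet neither passed at 0.01. H2-T22 passed without isotype control replicate 3 (adjusted p = 0.00601) and H2-M3 without PD-1 Ab replicate 5 (0.00797).

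The Q genes and Mr1 did not pass either. H2-Q7, the highest of the 9 genes in these tumors, averaged 438 FPKM with isotype control and 496 ± 34.8 (SD, n = 5) with PD-1 Ab, and the interval of its log2 change ran from -0.08 to 0.46. The interval was -0.12 to 0.38 for H2-Q6, 0.03 to 0.50 for H2-Q4 and -0.33 to 0.61 for Mr1. For none of these 4 genes were treated and control values separate.

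**Figure D3:**
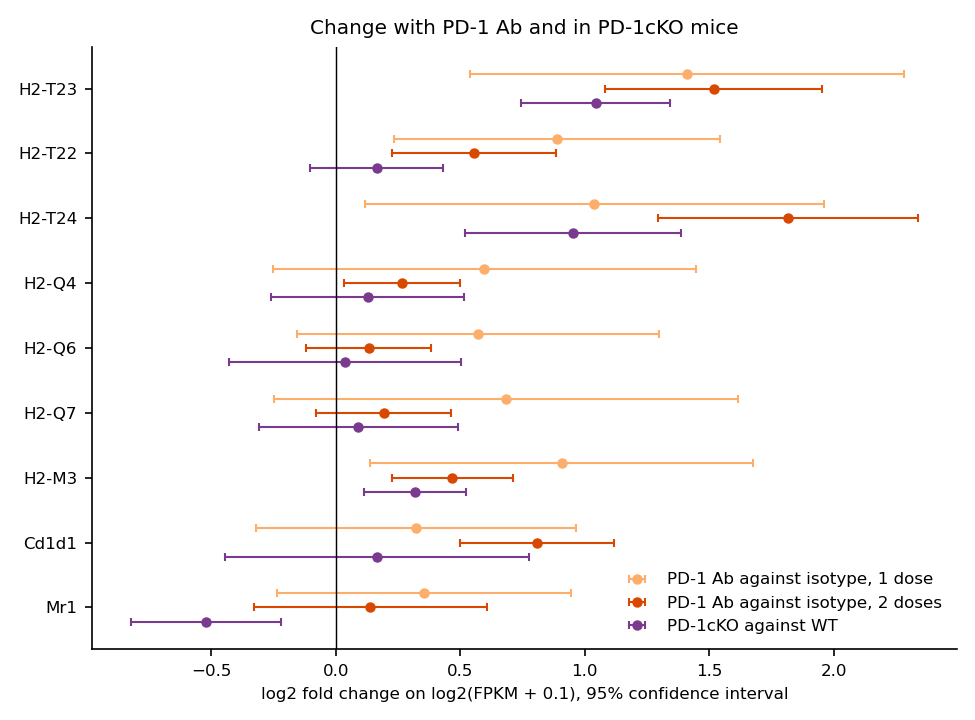
Log2 fold change of the 9 genes with 95% confidence intervals after 1 dose (light orange) and 2 doses (orange) of PD-1 Ab against isotype control and in PD-1cKO against WT tumors (purple). H2-T23 and H2-T24 lie highest after 2 doses and in PD-1cKO tumors, and Mr1 lies below 0 in PD-1cKO tumors.

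Over all 15062 genes tested after 2 doses, 5.3% passed with at least a 2-fold change, against 2 of 9 members, and 8.25% passed at any fold, against 3 of 9. Values of treated and control tumors were separate in 5 of the 9 genes and in 15.3% of all genes. The median log2 fold change of the 9 genes was 0.47, and that of all genes was -0.04.

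In the PD-1cKO study, H2-T23 was again the member that rose at least 2-fold. It ranged from 79.1 to 127 FPKM in WT tumors, with a median of 98.6 FPKM and a mean of 102 ± 17.6 (SD, n = 10). In PD-1cKO tumors it ranged from 130 to 286 FPKM, with a median of 206 FPKM and a mean of 215 ± 52.7 (n = 10). All 10 PD-1cKO tumors were above every WT tumor, and the log2 fold change was 1.04 (SE 0.14 and adjusted p = 0.000414 in limma). No other member separated the 2 groups, and of all genes 0.949% did. The fold change was so close to the limit that the 2-fold call was lost without PD-1cKO replicate 3, 4 or 8, although the adjusted p stayed at most 0.00130 when any 1 tumor was left out.

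H2-T24 ranged from 2.68 to 5.33 FPKM in WT tumors (mean 3.72 ± 0.929, SD) and from 3.67 to 12.9 FPKM in PD-1cKO tumors (mean 7.68 ± 2.97), and 7 of the 10 PD-1cKO tumors were above every WT tumor. Its log2 fold change was 0.95 (SE 0.21 and adjusted p = 0.00249 in limma), just under 2-fold. After rescaling it was 1.11, past 2-fold. Mr1 was lower in PD-1cKO tumors, from 2.58 to 6.64 FPKM with a mean of 4.60 ± 1.32, against 5.05 to 7.69 FPKM with a mean of 6.45 ± 0.778 in WT tumors. Its log2 fold change was -0.52 (SE 0.14 and adjusted p = 0.00827 in limma). After rescaling it was -0.36 with an adjusted p of 0.0158, and it did not pass in 16 of the 20 fits that left out 1 tumor, so this value stands at the edge of the test.

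Cd1d1 was dominated by 1 tumor. PD-1cKO replicate 8 had 23.2 FPKM, whereas the other PD-1cKO tumors had 1.70 to 6.56 FPKM and WT tumors 3.002 to 6.89 FPKM. The log2 fold change was 0.17 (95% interval -0.44 to 0.78), and without that tumor it was -0.08. H2-M3 averaged 34.8 FPKM ± 5.70 against 27.7 ± 2.76 in WT (0.32, limma adjusted p = 0.0149), with 8 of 10 PD-1cKO tumors above every WT tumor, and it passed after rescaling (0.48, adjusted p = 0.00355).

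H2-T22 and the Q genes spread more widely in PD-1cKO than in WT tumors. H2-T22 ranged from 122 to 294 FPKM in PD-1cKO and from 168 to 205 FPKM in WT tumors. H2-Q6 ranged from 62.3 to 344 FPKM against 106 to 184 FPKM. H2-Q4 ranged from 122 to 449 FPKM against 174 to 267 FPKM, and H2-Q7 from 86.2 to 324 FPKM against 110 to 241 FPKM. PD-1cKO values thus lay both above and below the WT range in all 4 genes. Every value below it came from PD-1cKO replicates 4 and 8, and for H2-Q7 from replicate 4 alone. These libraries had the highest shares of short noncoding RNA in the series (64.0% and 66.5%), and the part of this in the low values was not tested. The log2 fold changes were between 0.04 and 0.16 with an adjusted p of at least 0.301, and the difference in spread was not tested.

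Of all 15075 genes tested, 8.07% passed with at least a 2-fold change, against 1 of 9 members, and 21.3% passed at any fold, against 3 of 9 (H2-T23 and H2-T24 higher, Mr1 lower). These shares are not far from the background. The genes called with at least a 2-fold change were 633 higher and 584 lower as deposited, and 924 higher and 339 lower after rescaling, with a median change over all genes of -0.20 and -0.04. Sample identifiers fell into runs that nearly followed the groups: 7 PD-1cKO tumors formed 1 run with no WT tumor, 9 WT tumors and PD-1cKO replicate 8 formed another, and 2 PD-1cKO tumors and 1 WT tumor formed the third. With the run as a covariate 0 genes passed with at least a 2-fold change and 0 members passed at any fold, and H2-T23 changed by 1.18 with an adjusted p of 0.0257. Within the second run, H2-T23 was at 286 FPKM in the PD-1cKO tumor and at 79.1 to 127 FPKM in the WT tumors. Within the third run, it was at 156 and 199 FPKM against 106 FPKM.

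The difference between the 2 models was tested as the PD-1 Ab effect after 2 doses minus the PD-1cKO effect. No member passed, and 16 of 16404 genes (0.0975%) did. The difference was 0.47 for H2-T23 (95% interval -0.04 to 0.99), 0.86 for H2-T24 (0.14 to 1.58, limma adjusted p = 0.242) and 0.66 for Mr1 (0.13 to 1.19, adjusted p = 0.230). The antibody and knockout tumors differ in day, tamoxifen and share of noncoding RNA, and these cannot be told apart from the model.

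Setting each gene against H2-T23 in the same tumor removes the scaling of the sample. After 2 doses, H2-T22, H2-Q4, H2-Q6, H2-Q7, H2-M3 and Mr1 changed by less than H2-T23, by between -0.96 and -1.39 on the log2 scale (limma adjusted p at most 0.00125). Cd1d1 changed by 0.71 less (adjusted p = 0.0176) and H2-T24 by 0.30 more (0.409), and neither passed. In PD-1cKO tumors the same 6 genes changed by less, by between -0.73 and -1.56 (adjusted p at most 0.00243), and the value was -0.09 (0.663) for H2-T24. For Cd1d1 it was -0.88 (0.0111), and it passed without PD-1cKO replicate 8 (-1.07, adjusted p = 0.000816), replicate 9 (0.00595) or WT replicate 5 (0.00973) and turned to 0.21 with the run as a covariate. After 1 dose, H2-Q6, Cd1d1 and Mr1 passed, with values of -0.84, -1.09 and -1.06. H2-Q6 stood at the edge of the test and did not pass in 7 of the 10 fits that left out 1 tumor. Without isotype control replicate 1 the count of members that passed after 1 dose was 5, and without PD-1 Ab replicate 3 or 5 it was 1.

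Such differences were the rule among all genes: 71.9% of genes passed against H2-T23 after 1 dose, 79% after 2 doses and 80.9% in PD-1cKO tumors. Each of these ratios contains the same H2-T23 values, so the tests are not independent of each other. In a permutation test of each of the 24 ratios by itself, chosen after seeing the data, 7 of 8 members had an unadjusted p under 0.05 in each of the 3 comparisons, the exception being H2-T24. Of the 8 ratios, 6 separated treated from control tumors after 1 dose and 6 after 2 doses, with an exact two-sided p of 0.00794, the smallest that 5 against 5 allows. Among all genes, 70.8% separated in this way after 1 dose and 62% after 2 doses, so the members' counts are near the background. In PD-1cKO against WT tumors 0 of 8 ratios separated the groups, against 14.1% of all genes. With the run as a covariate, the count of members past the limma test in PD-1cKO tumors fell from 6 to 1.

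The share of H2-T23 in the summed FPKM of the 9 genes was higher in PD-1 Ab and PD-1cKO tumors than in their controls on average. It was 1.73% ± 0.112 (SD, n = 3) in MC-38 cells and 5.08% ± 0.632 in baseline tumors. It was 5.91% ± 0.601 with isotype control and 9.51% ± 0.535 with PD-1 Ab after 1 dose, and 6.04% ± 0.740 and 13.4% ± 2.58 after 2 doses. The ranges were separate at both times, also with the mitochondria-rich tumor in the group, whose low values were shared by all 9 genes. In the other study it was 11.8% ± 1.51 in WT and 20.9% ± 8.71 in PD-1cKO tumors, where the ranges of 9.46% to 14.2% and 12.8% to 38.6% overlapped. By mean level H2-T23 was at rank 8 of the 9 genes in the cultures, at rank 5 in WT and in all antibody-study tumors, and at rank 2 in PD-1cKO tumors, where H2-T22 lay at about the same level.

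**Figure D4:**
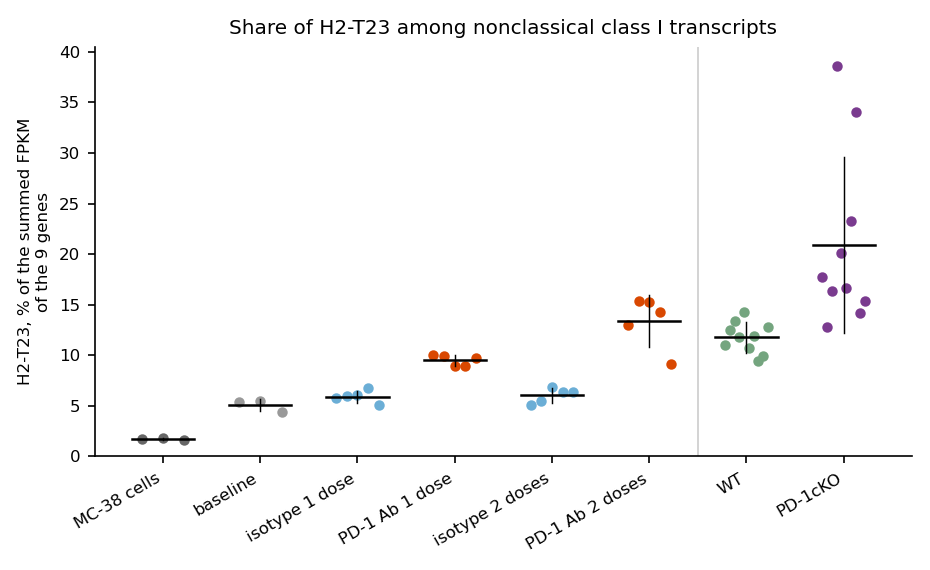
Share of H2-T23 in the summed FPKM of the 9 genes, in percent, 1 point per sample, with group means (horizontal bars) and SD (vertical bars). PD-1 Ab tumors lie above isotype control tumors after 1 and 2 doses with no overlap, and PD-1cKO tumors spread from 12.8% to 38.6%.

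Ordered by group mean, H2-T23 ran from MC-38 cells (2.28 FPKM) through isotype control after 1 dose (65.6), baseline (75.5), isotype control after 2 doses (83.0), WT (102), PD-1 Ab after 1 dose (148) and PD-1cKO (215) to PD-1 Ab after 2 doses (234). Only the steps from cells to tumors and from WT to PD-1 Ab after 1 dose were free of overlap between neighbours, and the second of these steps crosses the 2 studies. For H2-T22, H2-Q4, H2-Q6 and H2-Q7, only the step from cells to the lowest tumor group was. For H2-T24, H2-M3, Cd1d1 and Mr1 each group overlapped its neighbour. Cd1d1 and Mr1 had lower means in WT tumors than in cells, but their ranges overlapped and the libraries differed in short noncoding RNA.

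Both genes of the receptor that binds Qa-1 had larger log2 fold changes than H2-T23, set side by side from separate tests. Klrc1, which encodes NKG2A, was at 12.9, 15.4, 13.03, 7.51 and 5.18 FPKM with PD-1 Ab after 2 doses and at 1.01, 1.41, 1.34, 1.70 and 1.61 FPKM with isotype control, and its change was 2.76 (SE 0.28 and adjusted p = 0.000806 in limma). Klrd1, its CD94 partner, changed by 2.77. In PD-1cKO tumors the log2 fold changes were 1.83 for Klrc1 and 2.04 for Klrd1, and both passed. Values of both genes overlapped there, Klrc1 with 1.82 to 26.4 FPKM in PD-1cKO and 0.731 to 5.95 FPKM in WT tumors. The 7 T cell markers had median log2 fold changes of 2.92 after 2 doses and 1.74 in PD-1cKO tumors. Cd8a, Cd8b1 and the signalling adaptor Tyrobp, from the list of receptors and T cells that see class Ib molecules, passed higher both times. Of the 13 genes of that list, 7 and 8 were high enough to be tested, and Klrc2 was tested through the treated group alone (0.293 FPKM with isotype control and 0.883 FPKM with PD-1 Ab), so no count is drawn from it.

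Of the other genes of the pathway, 6 of 13 regulators passed after 2 doses, all higher, against 8.25% of all genes, with log2 fold changes of 1.28 for Nlrc5 and 2.52 for Ifng, which encodes interferon gamma. In PD-1cKO tumors 1 of 13 did, Ifng with 1.02, where 21.3% of all genes passed. Of the 14 loading genes, 2 passed after 2 doses, where 8.25% of all genes did. Both were higher (Tap1 with 0.83 and Tapbpl, a peptide editor, with 0.85), and no conclusion is drawn from 2 genes. In PD-1cKO tumors 0 passed higher and 2 lower, where 21.3% of all genes passed, so no more than the background. The lower genes were Erap1, which trims peptides, with -0.91 and the chaperone Canx with -0.85. The difference between the models passed for none of these genes.

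The classical genes also changed by less than 2-fold. H2-K1 averaged 1700 FPKM ± 379 with isotype control and 2227 ± 129 (SD, n = 5) with PD-1 Ab after 2 doses, a log2 change of 0.42 (limma adjusted p = 0.0656), and H2-D1 changed by 0.37 (0.101). In PD-1cKO tumors H2-D1 passed with 0.53 (adjusted p = 0.00593) and H2-K1 did not with 0.40 (0.0166). Relative to H2-T23, both passed as lower in both models. So did most genes, 11833 of 15061 after 2 doses and 12142 of 15074 in PD-1cKO tumors, so this does not set the classical genes apart.

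Further class Ib genes were mostly too low to test, with 7 of 23 past the filter on low values after 2 doses and 7 in PD-1cKO tumors. Fcgrt, the neonatal Fc receptor, and H2-M2 passed with at least a 2-fold change in both. H2-M2 averaged 2.58 FPKM ± 1.46 with isotype control and 10.57 ± 4.38 with PD-1 Ab after 2 doses (log2 fold change 2.03, limma adjusted p = 0.00543). It averaged 13.9 ± 5.46 in WT and 27.8 ± 9.66 in PD-1cKO tumors (1.09, adjusted p = 0.00668). H2-Q10 passed after 2 doses with 1.08. Of 6 genes of lipid loading onto CD1d, the saposin precursor Psap (1.27 after 2 doses, 1.44 in PD-1cKO) and Gm2a (1.17 and 1.13) passed with at least a 2-fold change both times. Of all genes, 5.3% and 8.07% did. At any fold, 3 of the 6 passed in PD-1cKO tumors, all higher, against 21.3% of all genes. No conclusion is drawn from so few genes. Cd1d1 itself passed only after 2 doses, with less than a 2-fold change (0.81).

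Within groups, the genes most like H2-T23 were not its chromosomal neighbours. Pearson's r of log2 values was computed over the 43 tumors after the mean of each group was subtracted, a description of points that share their library scaling. The highest values were 0.89 for Metrnl, 0.89 for Lgals3bp, 0.88 for the complement chain C1qc, 0.88 for the inhibitory T cell receptor Lag3 and 0.88 for H2-D1, out of 13227 genes with a median of 0.27. Among the members, r was 0.78 for H2-M3, 0.67 for H2-T24, 0.58 for H2-T22, 0.56 for H2-Q7, 0.50 for H2-Q4, 0.40 for H2-Q6, 0.33 for Cd1d1 and 0.04 for Mr1. Much of this rested on the mitochondria-rich tumor: without it, a check chosen after seeing the data, r was 0.55 for H2-M3, 0.47 for H2-T24, 0.26 for H2-T22, 0.18 for H2-Q7, 0.09 for H2-Q4, 0.07 for H2-Q6, 0.19 for Cd1d1 and -0.48 for Mr1. The 5 leading genes then had r between 0.76 and 0.80. After rescaling, Lag3 fell to rank 150 (r = 0.75) and Metrnl to rank 7 (0.84).

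Markers of other cells differed between the same groups. The 6 macrophage markers summed to 605 to 964 FPKM with isotype control and 1131 to 2346 FPKM with PD-1 Ab after 2 doses. They summed to 713 to 1243 FPKM in WT and 1009 to 3452 FPKM in PD-1cKO tumors. The macrophage sums were thus higher with PD-1 Ab with no overlap, and overlapped in the other study. The 4 endothelial markers summed to 14.4 to 19.6 FPKM with isotype control and 20.5 to 70.9 FPKM with PD-1 Ab after 2 doses, with no overlap. They overlapped in the other study, with 16.7 to 36.5 FPKM in WT and 19.6 to 55.9 FPKM in PD-1cKO tumors. The 7 T cell markers summed to 10.7 to 22.9 FPKM and 46.04 to 190 FPKM after 2 doses, and to 10.17 to 43.9 FPKM and 28.3 to 124 FPKM in WT and PD-1cKO tumors. The 4 adipocyte markers summed to 1.36 to 15.1 FPKM with isotype control and 5.05 to 121 FPKM with PD-1 Ab after 2 doses. They summed to 0.833 to 21.7 FPKM in WT and 0.832 to 297 FPKM in PD-1cKO tumors, and overlapped in both comparisons. The 6 fibroblast markers summed to 602 to 1341 FPKM in WT and to 1372 to 7098 FPKM in PD-1cKO tumors, with no overlap. The 5 neutrophil markers summed to 1.44 to 12.96 FPKM with isotype control and 1.31 to 2.72 FPKM with PD-1 Ab after 2 doses, and to 0.858 to 11.9 FPKM in WT and 2.68 to 369 FPKM in PD-1cKO tumors. The 5 NK cell markers summed to 2.20 to 2.94 FPKM with isotype control and 3.27 to 9.48 FPKM with PD-1 Ab after 2 doses, with no overlap. The 5 skeletal muscle markers summed to 0.945 to 1.72 FPKM and 2.17 to 69.0 FPKM, also with no overlap. Both lists overlapped between WT and PD-1cKO tumors. Sums of dendritic cell, B cell and epithelial markers and Ptprc overlapped in both comparisons. The part of these cells in the change of H2-T23 was not tested.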

How the data were processed

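The authors prepared stranded, ribosome-depleted total RNA libraries, read paired ends of 50 bases, aligned them to mouse build B38 with the Omicsoft aligner, allowing 2 mismatches, and quantified Ensembl release 86 genes in Array Studio (major version 10). They deposited FPKM values, normalized to transcript length and mapped fragments. The authors tested counts with DESeq2. Counts and depth were not used here, so precision is the spread between samples. Groups and replicate numbers came from the labels. The study describes the tumors as those of individual animals. No source used here states that the 3 MC-38 samples were separate cultures, so p-values against them measure a spread that may be technical.

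The deposited values were not rescaled, and a pseudocount of 0.1 FPKM was used on the log2 scale, which understates changes of low genes. Tests used limma 3.58.1 (R 4.3.3; lmFit, eBayes with trend, only the groups compared entering each fit) on all genes whose mean reached 0.5 FPKM in 1 of these groups, and p-values were adjusted by Benjamini-Hochberg over all tested genes. A gene passed at an adjusted p under 0.01, and was called with at least a 2-fold change as well. All 9 members passed the filter in every comparison. For changes relative to H2-T23, its log2 value was subtracted in each sample before the same fit. The 24 permutation tests were two-sided, exact for 5 against 5 tumors and with 100000 resamples for 10 against 10. Named genes were the 9 members, genes of fixed lists and the 5 genes with the highest r to H2-T23. The members and lists were chosen with earlier results of these data known. Fits were tested on simulated data. Symbols and positions came from GENCODE M21, which matched 99.1% of identifiers. Python 3.11.15 was used for the rest. The alternatives were another pseudocount and filters, median-of-ratios scaling, 1 fit of all 8 groups, a replicate block, runs of sample identifiers and leaving out each sample. The correlation of deviations between samples of the same replicate number had a median of 0.03, -0.04 and -0.01 in the comparisons after 1 dose, after 2 doses and of PD-1cKO with WT tumors.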

Additional observations from a re-analysis of the deposited data

Results flagged for a closer look

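In 4 of 54 sets of 1 gene in 1 group of at least 5 samples, 1 tumor lay far from the others, measured by its gap to the nearest value over the range of the group. Chance flags about 5% of such sets. H2-T24 was at 8.20 FPKM in PD-1 Ab replicate 2 after 1 dose, next to 5.36 FPKM in the nearest tumor. H2-Q6 was at 344 FPKM in PD-1cKO replicate 3, next to 191 FPKM. Cd1d1 was at 23.2 FPKM in PD-1cKO replicate 8, next to 6.56 FPKM, and at 6.89 FPKM in WT replicate 6, next to 4.93 FPKM.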

How the results depend on the processing

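No value that passed its test changed sign under any alternative run. Of 689 values, 20 no longer passed, 7 newly passed and 37 moved, and of 1453 values with 1 sample left out the numbers were 29, 12 and 47. The cause was not tested. H2-Q6 relative to H2-T23 after 1 dose did not pass with a pseudocount of 1 FPKM, no filter, 1 fit of all 8 groups or the replicate block (limma adjusted p at most 0.0384), and Cd1d1 relative to H2-T23 in PD-1cKO tumors passed with the pseudocount of 1 FPKM (0.00374), 1 fit of all 8 groups (0.00142) and the replicate block (0.00454). Among values that did not pass, H2-T22, H2-Q4 and H2-Q6 in PD-1cKO tumors turned to -0.01, -0.10 and -0.34 with runs of sample identifiers as a covariate. In 1 fit of all 8 groups after 1 dose, 16 genes were called and 1 member passed and was called, H2-T23 (1.41, limma adjusted p = 0.00562). After 2 doses, 450 genes were called with no filter, 316 with a replicate block and 1243 with no fold limit, against 799. For PD-1cKO, 617 genes were called with a pseudocount of 1 FPKM, 3217 with no fold limit and 0 with runs of sample identifiers as a covariate, against 1217. Members called there numbered 2 after rescaling and 0 with runs, where 0 passed and H2-T23 changed by 1.18 (limma adjusted p = 0.0257). With no fold limit, 5621 genes were called in isotype control tumors against cells and 5944 in baseline tumors. For the difference between the models, 25 genes were called with the pseudocount of 1 FPKM, 28 with no filter, 9 after rescaling, 2 in 1 fit of all 8 groups and 3 with the replicate block. Relative to H2-T23 with runs as a covariate, 0 members passed after 1 dose and 1 in PD-1cKO tumors, and the permutation tests, chosen after seeing the data, gave 7 members after 1 dose.

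With 1 sample left out, genes called ranged from 0 to 7 after 1 dose, with 7 without isotype control replicate 1. They ranged from 375 to 1534 after 2 doses, moving by over 1.5 times without isotype control replicate 1 (491) or 5 (494) or PD-1 Ab replicate 1 (445), 2 (422), 3 (375) or 5 (1534). For PD-1cKO they ranged from 743 to 1871, with 743, 786 and 1871 without PD-1cKO replicate 4, 8 and 9, and members called from 0 to 2. For the difference between the models the genes called ranged from 2 to 55, and members that passed relative to H2-T23 after 1 dose from 1 to 5. The replicate numbers did not pair the samples: 0, 1 and 0 of the same-numbered pairs correlated best with each other after 1 dose, after 2 doses and for PD-1cKO, and with the replicate block Cd1d1 after 2 doses (limma adjusted p = 0.0159) and Mr1 in PD-1cKO tumors (0.0207) no longer passed. Counts behind the FPKM values were not used here, so counting error was not estimated for genes at a few FPKM, such as H2-T24.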
